A study of Homo sapiens with 2 samples.

Results

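The 10 genes described here encode transcription factors of the luminal lineage of breast epithelium: GATA3, FOXA1, TFAP2A, TFAP2B, TFAP2C, ELF3, ELF5, SPDEF, GRHL2 and TBX3. They were chosen by name, from a fixed list, as every feature of the value table whose transcript accession maps to 1 of these symbols. All 10 had a value, with 1 feature each, so they make up 10 of the 11564 genes named on the array. A feature here is the summarised signal of 1 transcript accession.

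RNA came from T47D, a human breast cancer line that is established, expresses the oestrogen receptor and is classed as luminal. One culture carried a negative control lentivirus (NC) and the other a lentivirus whose short hairpin RNA targets TRPS1 (shTRPS1), and both were grown in the same serum-containing medium. Each group had 1 one-colour array, so there were 2 arrays, no replicates and no test between the groups, and every difference below compares these 2 arrays. The sources used here do not state the hairpin's sequence, the time after infection or whether the cells were a pool or a clone.

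The luminal layer of the mammary duct is specified by a small set of DNA-binding proteins that act together on the same enhancers. FOXA1 opens chromatin, GATA3 and the AP-2 proteins bind beside it, and the oestrogen receptor uses the sites they prepare. ETS factors such as ELF5 direct the secretory alveolar fate, and GRHL2 keeps epithelial junction genes active. TRPS1 is an atypical member of the GATA zinc finger family, works chiefly as a repressor and recognises the same DNA word as GATA3, and the comparison asks how this set stood once TRPS1 was targeted.

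The array background was taken as the 95th percentile of the 60 olfactory receptor features, which gave an intensity of 397 for NC and 325 for shTRPS1. The calling rule asked for a 2-fold difference or more (1 on the log2 scale) with at least 1 array over its background. TRPS1 itself (feature NM_014112) read 726 in NC and 603 in shTRPS1, a log2 difference of -0.27. Among the 500 features nearest to it in brightness, 57.2% were at least as far apart in either direction, so the lower TRPS1 value did not stand apart from the spread between features. Directions given for the luminal factors therefore rest on the label of the shTRPS1 array. Of 12 luminal marker genes 10 were above background, and the keratin features KRT8 (35126 in NC and 27010 in shTRPS1), KRT18 (10346 and 11433) and KRT19 (41417 and 40087) were bright on both arrays. TFF1 and TFF3, oestrogen-regulated secreted peptides, were below background on both arrays. ESR1 read 541 and 582, 1.36 and 1.79 times background. Both ESR1 values lay under the brightest olfactory receptor feature of their array (649 in NC and 677 in shTRPS1), so its reading is uncertain.

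Within the luminal set, 9 of the 10 factors were above background on both arrays and TBX3 on neither. Of these 9, only TFAP2B was called, 2.25-fold higher in the shTRPS1 array, and no factor was called lower or was 3-fold higher. Over all genes above background on at least 1 array 3.78% were called higher, 2.37% lower, and 0.662% were at least 3-fold higher. Over the 5829 genes above background on both arrays 1.39% were at least 2-fold higher. A difference of at least 1.5-fold upward was seen in TFAP2B and ELF5, 2 of the 9, beside 9.13% of genes above background on both arrays and 13.8% of those above it on at least 1. No factor was at least 1.5-fold lower, beside 7.03% of those genes. The difference was above 0 in 8 of the 9, beside 53.2% of genes. The median log2 difference over the 9 was 0.18, beside 0.04 over all genes above background on both arrays.

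**Figure D1:**
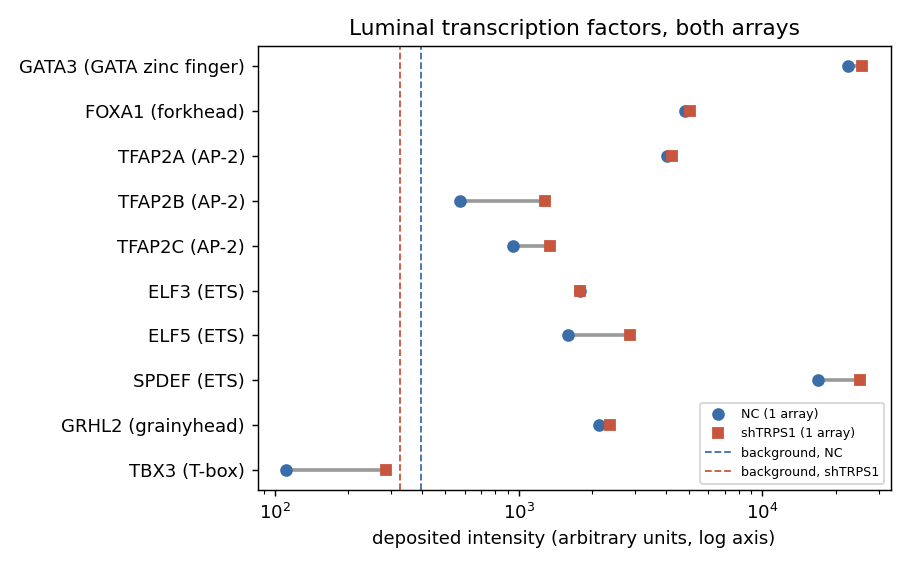
Deposited intensity (arbitrary units, log axis) of the 10 luminal factors in the NC array (circles) and the shTRPS1 array (squares), with each array's background level as a dashed line. TFAP2B moves from 572 to 1286, ELF3 does not visibly move, and both TBX3 values lie below background.

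The AP-2 proteins are paralogous factors that bind GC-rich palindromes, and TFAP2A and TFAP2C are the members best known in breast cancer cells. TFAP2B (feature NM_003221), known for roles in neural crest and kidney and expressed in mammary luminal cells, read 572 in NC and 1286 in shTRPS1, a log2 difference of 1.17. The NC value was 1.44 times the background level of that array, and the shTRPS1 value 3.95 times. Of the 60 olfactory receptor features, 1 was at least as bright as TFAP2B in NC and 0 were in shTRPS1. Measured against the brightest olfactory receptor feature of the NC array, at 649, TFAP2B was at least 1.98-fold higher. Among the 500 features nearest in brightness 3.0% were at least as far apart in either direction.

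TFAP2C (NM_003222), the AP-2 gamma factor that helps to hold the luminal state and ESR1 expression, read 943 and 1344. Its log2 difference was 0.51, and 22.8% of its 500 neighbours in brightness were at least as far apart. TFAP2A (NM_001032280), AP-2 alpha, read 4063 and 4236, a log2 difference of 0.06. The order of the differences in this family was therefore TFAP2B, TFAP2C and TFAP2A; whether neighbours in that order differ cannot be tested with 1 array a group. TFAP2A has 3 curated RefSeq transcripts (NM accessions) and the array feature carries the accession of 1, so other isoforms may not be read. The same limit holds outside this family for GATA3 (23 such transcripts), ELF5 and GRHL2 (4 each), and ELF3, SPDEF and TBX3 (2 each). Cross-hybridisation between the paralogues was not tested.

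The 3 epithelial ETS factors had unequal log2 differences, but whether they differ from one another cannot be tested with 1 array a group. ELF5 (NM_001422), the driver of alveolar secretory differentiation, read 1599 in NC and 2861 in shTRPS1, a log2 difference of 0.84 or 1.79-fold. This was under the 2-fold threshold, although 4.8% of its 500 neighbours in brightness were at least as far apart. SPDEF (NM_012391), a factor of secretory luminal cells first described in prostate, read 16854 and 25219, and its log2 difference of 0.58 lay just under the 1.5-fold line of 0.585. Among its neighbours 11.8% were at least as far apart. ELF3 (NM_004433), an ETS factor of differentiated epithelia, read 1785 and 1783, so the arrays gave nearly the same value.

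The factors regarded as the core of luminal identity differed little. GATA3 (NM_001002295) read 22487 and 25543, a log2 difference of 0.18, with values 56.7 and 78.5 times background. FOXA1 (NM_004496), the pioneer factor of oestrogen receptor binding, read 4795 and 5042, a log2 difference of 0.07. GRHL2 (NM_024915), the grainyhead factor of epithelial junctions, read 2142 and 2366, a log2 difference of 0.14. For GATA3, FOXA1 and GRHL2 respectively, 65.8%, 85.4% and 73.4% of the 500 neighbours in brightness were at least as far apart. With 1 array a group, these values do not show that the factors were unchanged.

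TBX3, a T-box repressor needed for mammary bud formation, was not measurable. Its feature (NM_005996) read 111 in NC and 285 in shTRPS1, below the background of each, so no fold is given. With a looser background, the 90th percentile of the olfactory receptor features (268 and 253), or with no background filter, TBX3 would count as called higher. The share of all genes called higher under those rules was 4.24% and 4.71%.

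**Figure D2:**
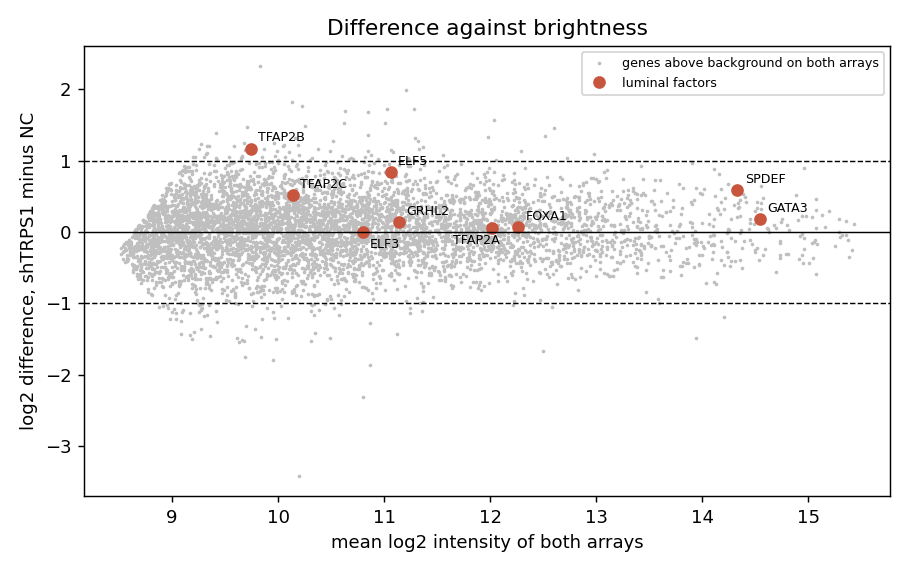
Log2 difference (shTRPS1 minus NC) against the mean log2 intensity of both arrays for the 5829 genes above background on both (grey) and the 9 luminal factors among them (red); dashed lines mark 2-fold. TFAP2B is the only luminal factor past the upper line, at 1.17, and ELF5 follows at 0.84.

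The starts of the genes with the 3 largest differences above background (TFAP2B, ELF5 and SPDEF) are shown beside that of ELF3, the member with the smallest, so that they can be read against the sites these factors and TRPS1 recognise. Each window runs from 250 bases before to 50 bases after the gene start, in RefSeq annotation of GRCh38.p14, 5′ to 3′ in the direction of the gene. Capitals mark the 1 word found in these 4 windows, a forkhead match.
TFAP2B (chr6:50818621-50818920, plus strand): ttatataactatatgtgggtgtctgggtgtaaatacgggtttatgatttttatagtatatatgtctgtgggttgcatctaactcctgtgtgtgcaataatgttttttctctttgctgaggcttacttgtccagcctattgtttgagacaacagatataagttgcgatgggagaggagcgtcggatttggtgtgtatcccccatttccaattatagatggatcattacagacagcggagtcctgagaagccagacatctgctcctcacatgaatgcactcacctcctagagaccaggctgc
ELF5 (chr11:34511675-34511974, minus strand): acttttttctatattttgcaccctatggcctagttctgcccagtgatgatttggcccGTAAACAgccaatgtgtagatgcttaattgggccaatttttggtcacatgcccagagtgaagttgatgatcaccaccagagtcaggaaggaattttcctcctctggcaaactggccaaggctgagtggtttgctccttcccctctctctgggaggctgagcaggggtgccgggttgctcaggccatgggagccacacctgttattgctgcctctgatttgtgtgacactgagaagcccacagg
SPDEF (chr6:34556280-34556579, minus strand): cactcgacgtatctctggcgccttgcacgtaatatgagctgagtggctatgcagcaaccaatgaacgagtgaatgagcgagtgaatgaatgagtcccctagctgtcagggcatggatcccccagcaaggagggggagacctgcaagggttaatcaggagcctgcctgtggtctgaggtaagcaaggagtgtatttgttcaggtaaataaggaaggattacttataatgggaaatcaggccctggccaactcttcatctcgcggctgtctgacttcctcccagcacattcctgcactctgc
ELF3 (chr1:202010337-202010636, plus strand): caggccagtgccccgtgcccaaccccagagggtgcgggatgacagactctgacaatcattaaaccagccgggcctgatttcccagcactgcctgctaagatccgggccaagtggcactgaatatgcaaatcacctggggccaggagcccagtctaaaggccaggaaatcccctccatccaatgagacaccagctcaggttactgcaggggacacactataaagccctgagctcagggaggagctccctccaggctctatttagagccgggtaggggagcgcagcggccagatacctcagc

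Both strands were searched for the GATA words GATAA and GATAG where an A or a T comes just before, the AP-2 palindrome GCCNNNGGC, the forkhead word TGTTTAC, the grainyhead word AACCGGTT and the T-box word AGGTGTGA. By symbol 7 of the 10 factors were matched and searched, with 13 windows in all, since GATA3 has 6 annotated starts and TFAP2A a pair. TFAP2C and TBX3 had no entry, and GRHL2 is not shown. A GATA word was in 0 of the 13 windows, beside 25.0% of all 35116 promoter windows of the same length. The AP-2 palindrome was in 3 windows, all of GATA3, beside 23.2% of all windows. The forkhead word was in 1 window, that of ELF5, on the opposite strand and starting 193 bases before the gene start, beside 3.42% of all windows. The grainyhead and T-box words were in 0 of the 13, beside 0.134% and 0.980%. These are matches of letters in short windows and say nothing of binding in these cells.

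Few relatives of these factors were above background. Of 34 listed paralogues of the same families 19 had a named feature, and 6 of these were above background on at least 1 array. Of the 6, 0 were called higher and GATA5 was called lower, and the difference was below 0 in 5. GATA5, a GATA factor of heart and gut, read 645 in NC and 197 in shTRPS1, which is not above background, so it was at least 1.98-fold lower. That bound is under the 2-fold threshold. The NC value of GATA5 also lay under the brightest olfactory receptor feature of that array, at 649, so its call is uncertain. GATA2, a haematopoietic GATA factor, read 2530 and 1884, a log2 difference of -0.43. FOXA2, the endodermal forkhead paralogue of FOXA1, read 904 and 763, a log2 difference of -0.25. ELF4, an ETS factor of lymphoid cells, read 1013 and 574, a log2 difference of -0.82. UBP1, a grainyhead-related factor and the relative with the difference above 0, read 197 and 381; only the second is above its array's background and it does not exceed that of NC, so no fold is given. Of the 6, 3 were above background on both arrays (GATA2, FOXA2 and ELF4), and their median log2 difference was -0.43. UBP1 and TBX1 were named after their values were seen. TBX1, a T-box factor, was at least 1.33-fold lower, and its NC value of 433 also lay under 649. No contrast with the luminal factors was tested.

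The other regulators of luminal cells went in both directions. Of 13 listed, 12 were measured, 6 were above background, and 0 were called either way. XBP1, the secretory stress factor that is abundant in luminal tumours, read 6332 and 10550, a log2 difference of 0.74. CEBPB read 1667 and 1274, a log2 difference of -0.39. The progesterone receptor PGR had a log2 difference of -0.35 and ESR1 one of 0.11. On both arrays PGR and ESR1 lay under the brightest olfactory receptor feature, so these differences are uncertain.

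Genes known as targets of the luminal factors were for the most part within 2-fold. In the GATA3, FOXA1 and oestrogen receptor network, 14 of 16 measured genes were above background, with 7 differences above and 7 below 0. SCUBE2, a secreted protein of oestrogen receptor positive tumours, was 2.77-fold higher, from 501 to 1388, and MAPT, the microtubule protein tau, was 2.64-fold lower, from 958 to 362. The lower value of each was close to background, SCUBE2 in NC at 1.26 times it and MAPT in shTRPS1 at 1.11 times. Both lay under the brightest olfactory receptor feature of their array (649 in NC and 677 in shTRPS1), so these folds are uncertain. CA12, a carbonic anhydrase of the same network, had a log2 difference of 0.17. Of the 8 reported AP-2 targets, 0 were called, and the median log2 difference over them was 0.03. Among them KRT8 had a log2 difference of -0.38, the claudin CLDN4 one of -0.05 and the cell cycle inhibitor CDKN1A differences of 0.29 and 0.74 in its 2 features.

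The 13 epithelial genes linked to GRHL2 were above background on at least 1 array, 11 of them on both, and 0 were called. The difference was above 0 in 6 and below 0 in 7, and the median was -0.05. RAB25, an epithelial trafficking GTPase, had a log2 difference of 0.54, ST14, the membrane protease matriptase, 0.52, and CLDN4 -0.05. The splicing regulator ESRP2, from 592 to 315, was at least 1.82-fold lower, and the transcriptional repressor OVOL1, from 458 to 293, at least 1.41-fold lower. Both were named after their values were seen. The NC values of ESRP2 and OVOL1 lay under the brightest olfactory receptor feature of that array (649), so these bounds are uncertain. Of 7 secretory genes linked to SPDEF, 4 were above background and MUC1 was called higher: its 2 features differed by 1.34 and 0.97. In the same list AGR2, a disulfide isomerase of secretory cells, had a log2 difference of 0.01 and AGR3 one of -0.39. CREB3L1, a secretory pathway factor, read 337 and 631 and was at least 1.59-fold higher. Its shTRPS1 value lay under the brightest olfactory receptor feature of that array (677). Of the 8 milk and lactation genes linked to ELF5, 3 were measured and 2 were above background. These were the prolactin receptor PRLR, with a log2 difference of 0.44, and the lipid droplet protein PLIN2, with -0.33.

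**Figure D3:**
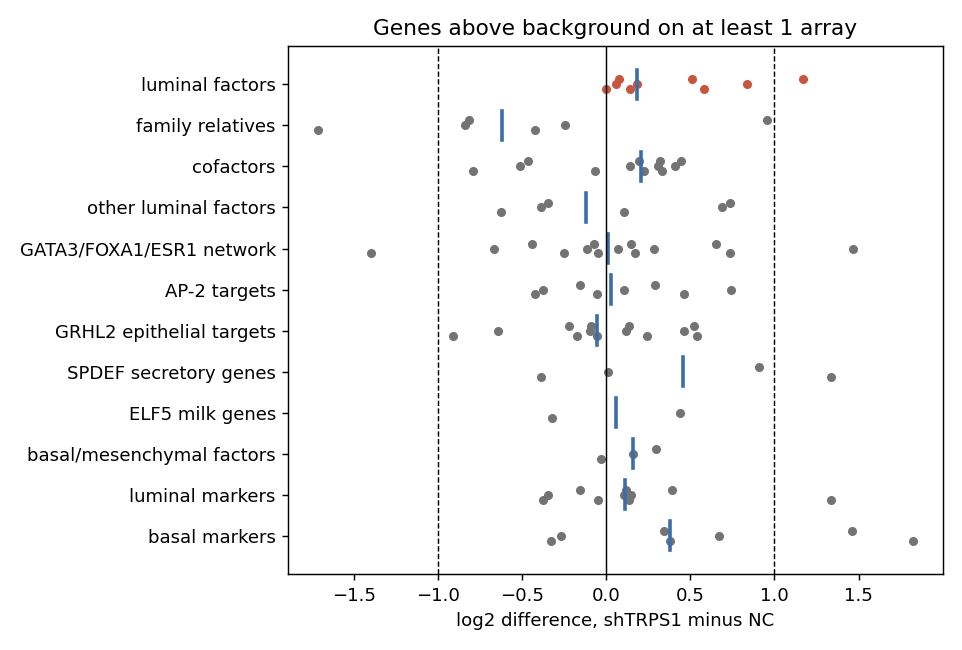
Log2 difference (shTRPS1 minus NC) of each gene above background on at least 1 array, by list; each point is a gene at its measured values and the vertical bar is the list's median, with dashed lines at 2-fold. The 9 luminal factors (red) run from -0.00 to 1.17 with a median of 0.18, and all are above background on both arrays, whereas 3 of the 6 family relatives are above it on 1 array alone.

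Most of the measured basal markers were above background on both arrays, and some were higher in the shTRPS1 array. All 7 of the measured basal markers, of 10 listed, were above background on at least 1 array, 6 of them on both, and 2 were called higher. EGFR was below background in NC, at 267. KRT14 read 598 and 2113, 3.54-fold higher, and KRT17 read 3735 and 10294, 2.76-fold higher. The NC value of KRT14 was 1.51 times background and lay under the brightest olfactory receptor feature of that array (649), so the size of its fold is uncertain. KRT5, the usual basal partner of KRT14, read 5273 and 4381, and VIM, vimentin, 665 and 1057. Summed over the 7 features the intensity was 18923 in NC and 28493 in shTRPS1, a difference that came mostly from KRT17, and TP63, MYH11 and CNN1 had no named feature. The part of these genes in the differences of the luminal factors was not tested. Of 16 listed basal and mesenchymal transcription factors 8 were measured, 3 were above background and 0 were called. They were TCF7L1, FOXC2 and SNAI1, with log2 differences of 0.30, -0.03 and 0.16.

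The differences of the luminal factors moved little with the scaling of the arrays. TFAP2B stayed at least 2-fold higher as deposited and after median-centring, quantile normalization and lowess correction, with a log2 difference between 1.10 and 1.17. ELF5 lay between 0.78 and 0.84, TFAP2C between 0.44 and 0.51 and GATA3 between 0.14 and 0.22. SPDEF lay between 0.54 and 0.61, past the 1.5-fold line after quantile normalization and lowess correction and under it otherwise. FOXA1, TFAP2A and GRHL2 were above 0 and ELF3 below 0 under each of the 4 scalings.

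**Figure D4:**
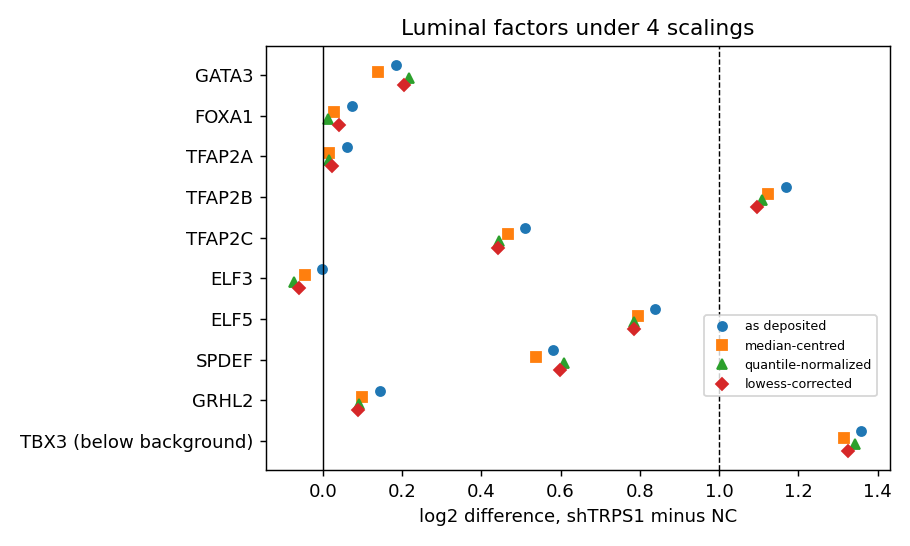
Log2 difference (shTRPS1 minus NC) of the 10 luminal factors as deposited and under 3 rescalings, 1 symbol for each; the dashed line marks 2-fold. The symbols of a gene lie close together, TFAP2B between 1.10 and 1.17, and TBX3 is below background on both arrays.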

How the data were processed

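Gene expression was measured on one-colour NimbleGen arrays, 1 of T47D NC and 1 of T47D shTRPS1 cells. The authors deposited a linear intensity per transcript accession for each array; RMA is named per the submitters' processing notes, and the sources used here give neither its steps nor the build of the design. Intensities ran from 50.0 to 62667 (NC) and from 50.1 to 62395 (shTRPS1), and log2 of them was taken. A second table has 8 sample columns that match no label, which were not used; its accession list served in 1 alternative.

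Of 28973 features 12598 were named, by a match of the accession to RefSeq genes of GRCh38.p14 or else by the platform annotation, as 11564 genes. Where a gene had several features, the brightest over both arrays stood for it. Levels of different features are not comparable as transcript amounts. The number of arrays limits the precision, and no p-value is given. Named in the text were TRPS1, every luminal factor, and in each of 11 further lists the called genes and up to 3 of the brightest others, with fixed markers; a few counted genes are not named here. The factors and lists were chosen with earlier results of these data known. Alternatives changed the scaling, the feature of a gene, the background (90th percentile, highest feature, both arrays, none), the threshold (1.5-fold, 3-fold), the feature list and the names. The lowess span was 0.4. The rule was tested on simulated data with a chosen noise level and with differences planted only in genes well above background. Recovery of differences in genes close to background, such as TFAP2B in NC, was not tested. Python 3.11.15 was used with statsmodels 0.14.6 (lowess), pandas 2.3.3, numpy 2.4.6 and, for plots, matplotlib 3.10.9.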

Additional observations from a re-analysis of the deposited data

How the results depend on the processing

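Over the alternatives run, 1 luminal factor, TFAP2B, remained called higher after each rescaling and with both arrays required above background. It also remained called with platform symbols only and with the highest olfactory receptor feature as background, and 0 were called lower in any of these. With that highest feature as background (649 in NC), the NC value of TFAP2B, 572, was below background. Measured against 649 it was at least 1.98-fold higher, a bound under the 2-fold threshold. Other summaries of a gene's features could not change the calls of the factors, since each has 1 feature. With the 90th percentile as background, and with no background filter, 2 were called higher, TBX3 joining TFAP2B, beside 4.24% and 4.71% of genes; in both cases the difference of TBX3 rests on values below the main background. At 1.5-fold 2 were called higher (TFAP2B and ELF5), beside 13.8% of genes, and at 3-fold 0 were, beside 0.662%. The median over the factors was between 0.14 and 0.22 under the rescalings and 0.35 where TBX3 entered. No factor had a feature in the second table, so that alternative gave no value for them.

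The counts over all genes moved more. Against 263 higher and 165 lower, they were 126 and 101 with the highest olfactory receptor feature, 81 and 77 with both arrays above background, 545 and 440 with no filter, 958 and 588 at 1.5-fold, 46 and 41 at 3-fold, and 51 and 48 over the second table's features. These alternatives change which genes or folds qualify. Signal over background limits TBX3, and TFAP2B in the NC array. No paired analysis was possible because each group has 1 array and the labels give no replicate numbers.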

Other observations

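Proteins that bind the luminal factors and modify their activity were mostly above background, and none was called. Of 18 listed cofactors 15 were measured and 12 were above background on at least 1 array, with 8 differences above and 4 below 0 and a median log2 difference of 0.21. LMO4, a LIM-only protein of mammary epithelium, had a log2 difference of 0.31, and its partner LDB1 one of 0.32. KCTD1, known as an inhibitor of AP-2 activity, had a difference of 0.41, and the AP-2 coactivator CITED2 one of 0.19; both were chosen after their values were seen. TLE3, a Groucho-type corepressor also chosen after its values were seen, was the cofactor with the lowest difference, -0.79, from 599 to 346, of which the second is close to the background of 325. These values come from 1 array a group and have no replicate check.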
